A study of Mus musculus with 4 samples.

Results

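The Toll-like receptor family was examined through 10 genes, Tlr1 to Tlr9 and Tlr13, taken by symbol from a table of 17780 genes measured in mouse lung. The data are 4 poly(A)+ RNA libraries, 1 per group, so the difference between animals is not known for any group and no p-value is given. The groups were C57BL/6 mice given vehicle, amiodarone, dabigatran or amiodarone and dabigatran together, for 28 days by the labels (day 26 in the methods of the study). By those methods the animals were male C57BL/6J mice bought at 6 to 7 weeks of age. They received vehicle containing carboxymethylcellulose, amiodarone at 300 mg per kg per day or dabigatran etexilate at 60 mg per kg per day by mouth 5 times per week, and the left lung was taken. Whether a library holds RNA of 1 animal or of several was not given in the sources used here. Amiodarone is an antiarrhythmic drug known for lung injury as an adverse effect, dabigatran etexilate is the oral prodrug of a thrombin inhibitor, and the design asks what dabigatran changes in lungs exposed to amiodarone.

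Toll-like receptors are innate immune sensors with a leucine-rich repeat ectodomain that binds microbial or damage-derived molecules and a cytoplasmic TIR domain that recruits the adaptors MyD88 or TRIF. Signalling from them activates NF-kappaB and interferon regulatory factors and so cytokines and type I interferon. In the lung they are carried by macrophages, dendritic cells and neutrophils and also by epithelium. Of the members, 5 are known as cell-surface receptors for lipids, lipoproteins and protein (Tlr1, Tlr2, Tlr4, Tlr5 and Tlr6) and 5 as endosomal receptors for nucleic acids (Tlr3, Tlr7, Tlr8, Tlr9 and Tlr13). The mouse receptors Tlr11 and Tlr12 were also in the table, at 9 to 16 and 44 to 65 reads per library, and were not members.

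Levels are given as FPKM, the fragments assigned to a gene scaled to its transcript length and to the depth of the library, so they can be set side by side between genes. The reads assigned to genes summed to between 17498486 and 18903401 per library. A ratio is the FPKM of the first library divided by that of the second. The 95% interval behind it is an exact Clopper-Pearson interval from the reads of both, which covers counting error only and says nothing of the spread between mice. A gene was called higher or lower at a ratio of at least 1.5-fold in either direction, and a difference is said to be beyond counting error where its interval leaves out 1. Because this is bulk lung, fewer cells of a type and less RNA per cell cannot be told apart.

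Sequences of 3 members carry what follows. Tlr13, an endosomal sensor of bacterial ribosomal RNA, was 3.71 times as high with amiodarone as with vehicle, and it was the member with the largest range over the libraries. Tlr1 and Tlr6, neighbours on chromosome 5, share part of their coding sequence, and the values of Tlr6 depend on how the reads of that part were divided. The 3 lines below hold the 250 bases before a RefSeq transcript start of Tlr13 (chrX:106143025-106143274, plus strand), the same for Tlr6 (chr5:64959167-64959416, minus strand), both on GRCm38.p6, and the 229-base run that Tlr1 and Tlr6 transcripts have in common. In the first, capitals mark the letters GAGGAAG, the core that the myeloid factor PU.1 is known to bind. In the second, capitals mark the letters of an interferon-stimulated response element read on the other strand (GAAA, any 2 bases, GAAA), where 2 overlapping matches begin 116 and 110 bases before the start. The shared run is printed without capitals.
Tlr13, before the start: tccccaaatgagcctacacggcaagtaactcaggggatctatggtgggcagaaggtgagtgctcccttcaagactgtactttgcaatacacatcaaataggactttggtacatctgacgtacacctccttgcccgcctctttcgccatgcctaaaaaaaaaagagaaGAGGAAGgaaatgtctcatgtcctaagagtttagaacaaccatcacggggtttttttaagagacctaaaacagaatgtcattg
Tlr6, before the start: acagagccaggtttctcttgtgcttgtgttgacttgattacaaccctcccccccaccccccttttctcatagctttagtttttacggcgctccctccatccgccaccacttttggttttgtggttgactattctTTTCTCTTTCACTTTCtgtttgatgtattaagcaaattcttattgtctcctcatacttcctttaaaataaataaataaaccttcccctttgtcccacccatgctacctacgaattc
Tlr1 and Tlr6, shared run: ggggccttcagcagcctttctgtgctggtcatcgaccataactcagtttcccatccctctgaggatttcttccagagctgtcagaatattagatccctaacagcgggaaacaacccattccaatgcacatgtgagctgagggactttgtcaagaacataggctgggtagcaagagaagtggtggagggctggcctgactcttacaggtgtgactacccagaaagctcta

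The shared run lies within the coding sequence of both genes in the GENCODE annotation of GRCm38, at chr5:64925537-64925765 in Tlr1 and chr5:64953828-64954056 in Tlr6, on the minus strand. Cut into 50-base words, 14.8% of the words of Tlr1 transcripts and 12.3% of those of Tlr6 also occur in another gene, against 2.88% for Tlr3, 0.222% for Tlr4 and 0% for the other 6 members. The motif matches are descriptions of letters and not of binding. GAGGAAG on either strand occurs in 10.6% of the 32851 RefSeq windows of the same length, and among members it occurs before Tlr1, Tlr9 and Tlr13. The interferon element occurs in 2.98% of windows and in 1 of the 2 windows of Tlr6. TTCNNNGAA, the letters of the gamma-activated site, occurs in 7.02% of windows and before Tlr1 and Tlr8. A window was found for 8 of the 10 members, and Tlr2, Tlr3 and Tlr5 had none of the 3 motifs in theirs.

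With amiodarone, 4 of the 10 members were called higher than with vehicle (Tlr2, Tlr6, Tlr7 and Tlr13) and 1 was called lower (Tlr5). Over the 13183 genes whose mean reached 1 FPKM, 5.14% were called higher and 6.59% lower in the same comparison. Among the 7042 genes with a mean between 0.5 and 10 FPKM, a range that holds every member, these shares were 7.19% and 12.4%. Beyond counting error, 6 members were higher and 1 was lower, where 19.5% and 30% of the 13183 genes were. Those genes, called all genes from here on, leave out Tlr6 and are not matched to the members by level. The median log2 ratio of the 10 members was 0.28, beside -0.05 for all genes. The members thus stood on the higher side in a comparison in which more genes were lower than higher.

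**Figure D1:**
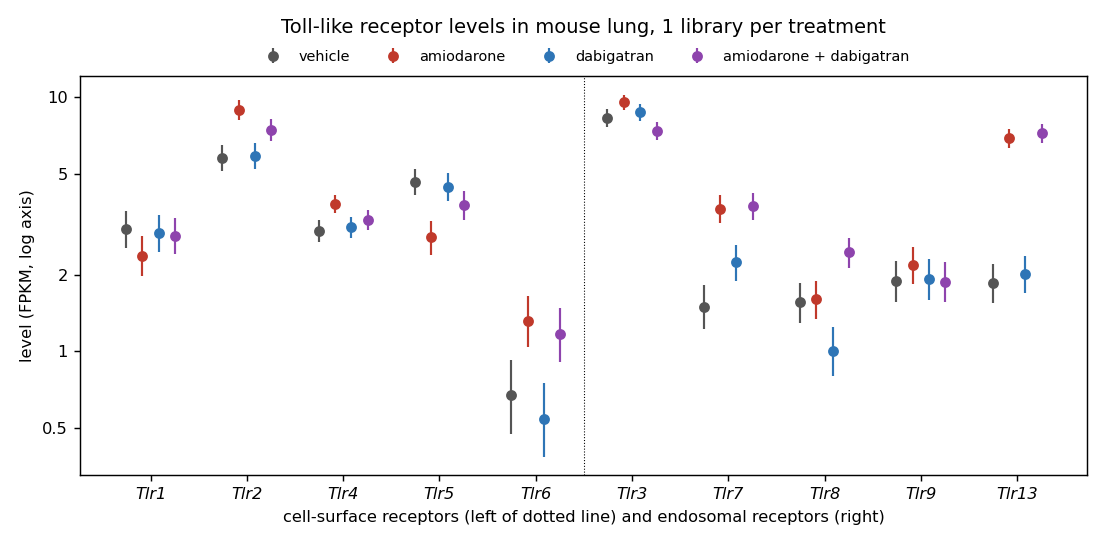
Level of each receptor gene in FPKM on a log axis, with 1 point per library and exact 95% Poisson intervals from the reads as bars. Tlr13 and Tlr7 sit apart in the amiodarone and amiodarone + dabigatran libraries, at 6.90 and 7.22 FPKM and at 3.64 and 3.72 FPKM, and Tlr5 is lowest with amiodarone at 2.81 FPKM.

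Both libraries with amiodarone lay above both libraries without it for 6 members (Tlr2, Tlr4, Tlr6, Tlr7, Tlr8 and Tlr13) and below both for 2 (Tlr1 and Tlr5), while Tlr3 and Tlr9 overlapped. Over all genes, 21.9% lay above in this way and 31.3% lay below. This order takes no account of counting error. Counting error covered the difference between the closest libraries of the 2 sides for Tlr4 (3.29 and 3.08 FPKM) and Tlr8 (1.6 and 1.56). It also did so for Tlr1 (2.85 and 2.93) and Tlr5 (3.76 and 4.45). Sorted by dabigatran in the same manner, the libraries overlapped for all 10 members, where 13.2% of all genes lay above and 7.13% lay below. These are 2 libraries of different treatments on each side and not replicates.

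Among the cell-surface receptors, Tlr2 (gene identifier 24088, chromosome 3 from 83836272 to 83841824) is the receptor for bacterial lipoproteins and works as a pair with Tlr1 or Tlr6. Its level was 5.77 FPKM in the vehicle library, 8.95 after amiodarone, 5.88 after dabigatran and 7.47 after both drugs. Both amiodarone libraries were high, and vehicle and dabigatran were alike within counting error. The ratio was 1.55 (1.34 to 1.80) for amiodarone against vehicle and 1.27 (1.09 to 1.48) for both drugs against dabigatran. With both drugs the level was 0.835 times (0.728 to 0.956) that of amiodarone alone, a difference beyond counting error that did not reach 1.5-fold.

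Tlr4 (21898, chromosome 4 from 66827551 to 66846581), the receptor for lipopolysaccharide, stood at 2.98 FPKM under vehicle, 3.81 under amiodarone, 3.08 under dabigatran and 3.29 under both. It followed the same order as Tlr2 on a smaller scale and passed 1.5-fold nowhere. The ratio was 1.28 (1.12 to 1.46) for amiodarone against vehicle and 0.864 (0.763 to 0.977) for both drugs against amiodarone. With both drugs against dabigatran it was 1.07 (0.936 to 1.22), which counting error covers.

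Tlr5 (53791, chromosome 1 from 182954752 to 182976044) is the flagellin receptor and was the member that stood lower with amiodarone. Its level was 4.65 FPKM in the vehicle library, 2.81 after amiodarone, 4.45 after dabigatran and 3.76 after both. The amiodarone library was the low one and the library with both drugs lay between it and the other two. Amiodarone against vehicle gave a ratio of 0.604 (0.496 to 0.735), and both drugs against amiodarone gave 1.34 (1.09 to 1.64). For both drugs against dabigatran the ratio was 0.845 with an interval that just held 1 (0.704 to 1.01).

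Tlr1 and Tlr6 are the partners of Tlr2 for lipoproteins that carry different numbers of acyl chains. Tlr1 (21897, chromosome 5 from 64924680 to 64933600) stood at 3.03 FPKM under vehicle, 2.38 under amiodarone, 2.93 under dabigatran and 2.85 under both, and counting error covered its ratio in every comparison (0.785, 0.612 to 1.01, for amiodarone against vehicle). Tlr6 (21899, chromosome 5 from 64953092 to 64970942) stood at 0.67 FPKM under vehicle, 1.32 under amiodarone, 0.54 under dabigatran and 1.17 under both. Tlr6 thus stood higher in the 2 amiodarone libraries, with ratios of 1.97 (1.32 to 3.0) against vehicle and 2.17 (1.43 to 3.32) against dabigatran, from the smallest counts of any member. These were 36.91, 78.15, 36.62 and 70.2 estimated reads in the order vehicle, amiodarone, dabigatran and both. The reads per FPKM of Tlr6 were 55.1, 59.2, 67.8 and 60 in that order, highest with dabigatran. With reads scaled to library totals, both drugs against dabigatran gave 1.80 in place of 2.17, and dabigatran against vehicle 0.978 in place of 0.806. The intervals do not cover this.

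The estimated reads of Tlr1 and Tlr6 were not whole numbers, while their sum was whole in every library, at 184, 199, 179 and 217 reads in that order. This is what a division of shared reads between the pair leaves in a table. The summed pair made 10.5 of every 1000000 reads under vehicle, 10.6 under amiodarone, 10.1 under dabigatran and 11.5 under both. No ratio of the pair went beyond counting error, at 1.01 (0.823 to 1.24) for amiodarone against vehicle and 1.14 (0.930 to 1.40) for both drugs against dabigatran. The higher Tlr6 and the lower Tlr1 of the amiodarone library cancelled in the sum, so in the call on Tlr6 the division of shared reads and a difference of the gene itself cannot be told apart.

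**Figure D2:**
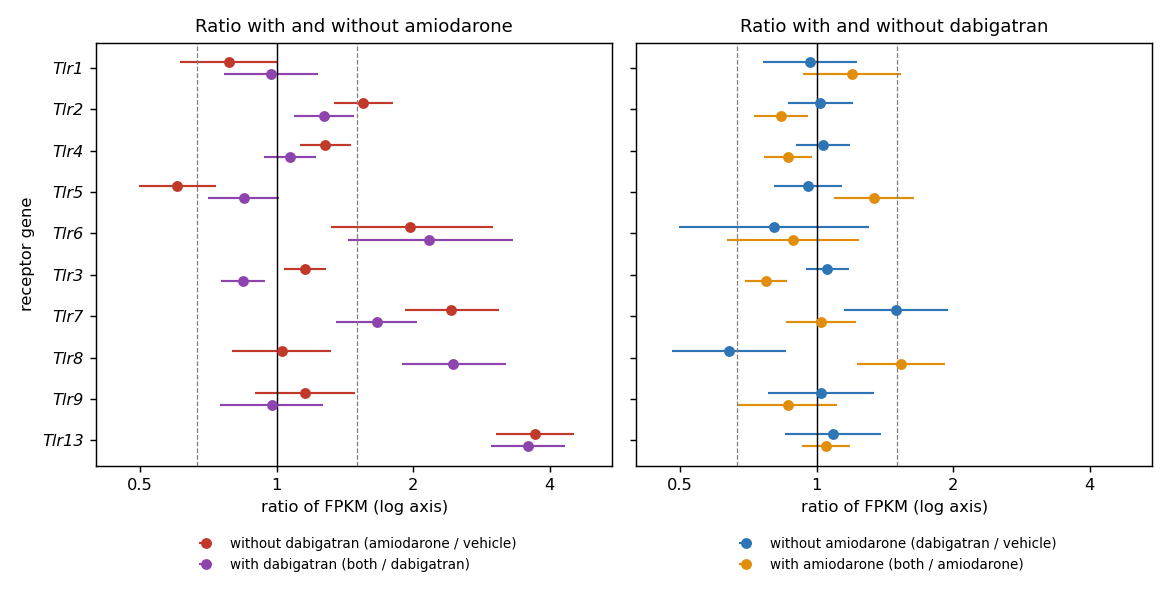
Ratio of FPKM for each receptor gene on a log axis, for the step that adds amiodarone (left) and the step that adds dabigatran (right), with exact 95% intervals from the reads as bars, a solid line at 1 and dashed lines at 1.5-fold in each direction. Tlr13 is the furthest to the right in both amiodarone steps, at 3.71 and 3.57, and Tlr8 lies on opposite sides of 1 in the 2 dabigatran steps, at 0.641 and 1.53.

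Of the endosomal receptors, Tlr13 (279572, chromosome X from 106143275 to 106160493) showed the widest differences. Its level was 1.86 FPKM with vehicle and 2.02 with dabigatran, from 129 and 142 reads, against 6.90 with amiodarone and 7.22 with both, from 513 and 542 reads. The 2 libraries with amiodarone lay far above the 2 without and close to each other. The ratio was 3.71 (3.05 to 4.54) for amiodarone against vehicle and 3.57 (2.97 to 4.33) for both drugs against dabigatran, which share no library. Adding dabigatran to amiodarone gave a ratio of 1.05 (0.926 to 1.18), within counting error.

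Tlr7 (170743, chromosome X from 167303380 to 167330574), a receptor for single-stranded RNA, stood at 1.5 FPKM under vehicle, 3.64 under amiodarone, 2.24 under dabigatran and 3.72 under both. It was high in both amiodarone libraries and lay in between with dabigatran alone. The ratio was 2.43 (1.92 to 3.09) for amiodarone against vehicle and 1.66 (1.35 to 2.04) for both drugs against dabigatran. It was the one member higher beyond counting error with dabigatran alone, at 1.49 (1.15 to 1.95), just under the 1.5-fold call. Both drugs against amiodarone gave 1.02 (0.858 to 1.22).

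Tlr8 (170744, chromosome X from 167241123 to 167264329) lies beside Tlr7 and is its closest relative in the family. Its pattern was another one: 1.56 FPKM under vehicle, 1.6 under amiodarone, 1.0 under dabigatran and 2.45 under both, from 123, 134, 82 and 216 reads. The library with both drugs was the high one and the dabigatran library the low one, while vehicle and amiodarone were alike within counting error (ratio 1.03, 0.797 to 1.32). Dabigatran against vehicle gave 0.641 (0.479 to 0.855), and both drugs against amiodarone gave 1.53 (1.23 to 1.91). Both drugs against dabigatran gave 2.45 (1.89 to 3.20), the second largest ratio of that comparison after Tlr13.

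Tlr3 and Tlr9 had no ratio past 1.5-fold in any of the 4 comparisons. Tlr3 (142980, chromosome 8 from 45395665 to 45411075), the receptor for viral RNA duplexes that signals through TRIF, stood at 8.29 FPKM under vehicle, 9.56 under amiodarone, 8.75 under dabigatran and 7.39 under both. It was lowest with both drugs, at 0.773 times (0.694 to 0.861) the amiodarone library and 0.845 times (0.755 to 0.944) the dabigatran library, and higher with amiodarone than with vehicle (1.15, 1.04 to 1.28). The antisense gene Gm45542 overlaps its exons, and the strand setting of the counting was not given in the sources used here, so reads from the 2 strands cannot be told apart. Tlr9 (81897, chromosome 9 from 106222598 to 106226876), which senses unmethylated CpG DNA, had 1.89, 2.18, 1.93 and 1.88 FPKM in the order vehicle, amiodarone, dabigatran and both. Counting error covered every ratio of Tlr9, among them 1.15 (0.894 to 1.49) for amiodarone against vehicle and 0.862 (0.671 to 1.11) for both drugs against amiodarone.

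Taking the classes as a whole, the cell-surface receptors summed to 17.1 FPKM under vehicle, 19.3 under amiodarone, 16.9 under dabigatran and 18.5 under both. The endosomal receptors summed to 15.1, 23.9, 15.9 and 22.7 FPKM in the same order. Their share of the summed family was thus 46.9% with vehicle and 48.6% with dabigatran, and 55.3% with amiodarone and 55.0% with both. Counted as a share of all reads, the endosomal class was 1.56 times (1.45 to 1.68) as high with amiodarone as with vehicle and the cell-surface class 1.14 times (1.06 to 1.24). For both drugs against dabigatran these ratios were 1.42 (1.32 to 1.53) and 1.08 (0.995 to 1.17).

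The endosomal sum depended on Tlr13. Without Tlr13 the other 4 endosomal genes gave 1.27 (1.17 to 1.38) for amiodarone against vehicle and 1.12 (1.03 to 1.22) for both drugs against dabigatran. As medians of log2 ratios over 5 genes each, amiodarone against vehicle gave 0.35 for cell-surface and 0.21 for endosomal receptors, the other order than the sums. The cell-surface median was not stable: without Tlr6 it was 0.00306, and leaving out Tlr2 instead would give the same value. For both drugs against dabigatran the medians were 0.10 and 0.73. All 5 endosomal members had a ratio above 1 in amiodarone against vehicle, and 3 of the 5 cell-surface members did. Beyond counting error, 3 members of each class were higher and 1 cell-surface member was lower, where 19.5% and 30% of all genes were. Whether the classes differ was not tested.

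**Figure D3:**
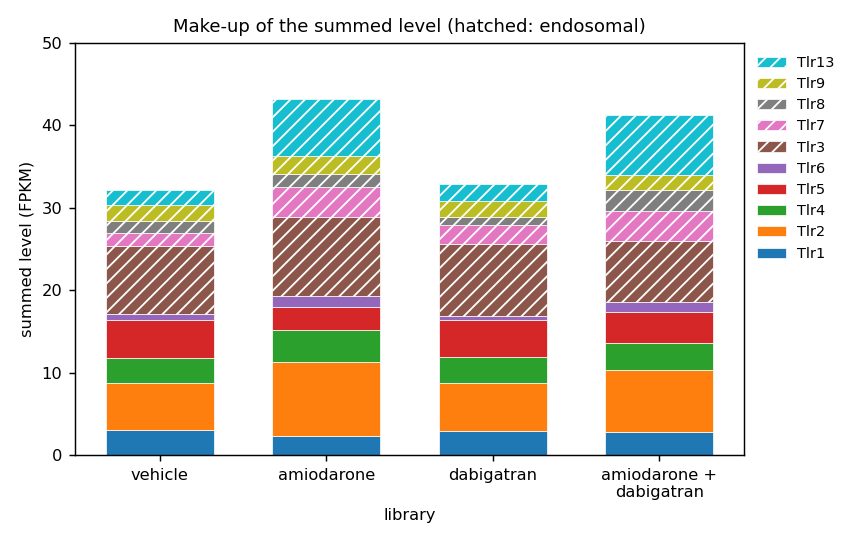
Summed FPKM of the 10 receptor genes in each library, stacked by gene, with the endosomal receptors hatched. The bars reach 32.2, 43.2, 32.8 and 41.2 FPKM from left to right, and Tlr13 takes a larger part in both libraries with amiodarone.

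The order of the levels within a library changed with it. Tlr3 led with vehicle and with dabigatran, ahead of Tlr2 by more than counting error in both. With amiodarone, Tlr3 and Tlr2 overlapped at the top, and with both drugs Tlr2, Tlr3 and Tlr13 overlapped at 7.47, 7.39 and 7.22 FPKM. Tlr13 stood at rank 7 of 10 with vehicle, at 1.86 FPKM among Tlr9, Tlr8 and Tlr7 from which it could not be told by counting error, and at rank 3 in both libraries with amiodarone. Tlr6 was at the bottom in each library, and with amiodarone it overlapped with Tlr8 above it.

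With dabigatran alone, no member was called higher and Tlr8 was called lower, where 1.21% and 1.3% of all genes were, and 3.42% and 3.54% of those between 0.5 and 10 FPKM. Beyond counting error, Tlr7 was higher and Tlr8 lower, beside 15.2% and 13.4% of all genes. For the other 8 members counting error covered the ratio, which ran from 0.806 for Tlr6 (0.978 with reads scaled to library totals) to 1.09 for Tlr13. With both drugs against amiodarone, Tlr8 was called higher and none was called lower, where 2.28% and 1.8% of all genes were, and 5.5% and 3.78% of those between 0.5 and 10 FPKM. Beyond counting error, Tlr5 and Tlr8 were higher and Tlr2, Tlr3 and Tlr4 lower, with 21.1% and 14.9% of all genes outside counting error in these directions. With both drugs against dabigatran, Tlr6, Tlr7, Tlr8 and Tlr13 were called higher and none was called lower, where 4.14% and 3.89% of all genes were, and 6.52% and 7.74% of those between 0.5 and 10 FPKM. Beyond counting error, 5 members were higher (these 4 and Tlr2) and Tlr3 was lower, beside 19.5% and 23.3% of all genes.

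Amiodarone against vehicle and both drugs against amiodarone share the amiodarone library, so whatever sets that library apart enters both ratios in opposite directions. For Tlr2 the ratios were 1.55 and 0.835, for Tlr4 1.28 and 0.864, and for Tlr5 0.604 and 1.34, and the endosomal Tlr3 had 1.15 and 0.773. These 4 receptors had their second ratio on the other side of 1 from the first, both beyond counting error. The share of all genes that do so was not counted, so the pattern is not shown to be particular to these receptors. The 3 genes with the largest first ratios did not show this beyond counting error, with 3.71 and 1.05 for Tlr13, 2.43 and 1.02 for Tlr7 and 1.97 and 0.886 (0.633 to 1.24) for Tlr6. Against vehicle, the library with both drugs had ratios of 3.88 (3.20 to 4.74) for Tlr13, 2.48 (1.96 to 3.16) for Tlr7, 1.75 (1.16 to 2.68) for Tlr6 and 1.57 (from 216 and 123 reads) for Tlr8. Tlr2 was also higher beyond counting error, at 1.29 (1.11 to 1.51). Tlr5 was lower, at 0.809 (0.675 to 0.968), as was Tlr3, at 0.891 (0.796 to 0.999). Counting error covered the ratios of Tlr1, Tlr4 and Tlr9. Shares of all genes were not counted for this comparison.

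The genes around the receptors were described by lists, and 1.5-fold calls are counted for amiodarone against vehicle. In that comparison 5.14% of all genes were called higher and 6.59% lower. None of the 6 co-receptor and ligand transfer genes was called, and all 6 had a ratio above 1, led by Ly96, which encodes the MD-2 partner of Tlr4, at 8.51 against 5.76 FPKM (ratio 1.48). Beyond counting error, 5 of the 6 were higher, where 19.5% of all genes were. With both drugs Ly96 was at 5.61 FPKM, 0.659 times the amiodarone library. It was the one call of that list in both drugs against amiodarone, where 2.28% of all genes were called higher and 1.8% lower. None of the 7 folding and trafficking genes was called, and the furthest from 1 was the chaperone Cnpy4 at 0.831. All 4 endosomal proteases, which cleave the nucleic acid receptors into their active form, were higher beyond counting error. Of these, Ctss (cathepsin S) was called higher. It stood at 77.1 FPKM under vehicle, 226.89 under amiodarone, 80.32 under dabigatran and 205.81 under both, a ratio of 2.94 for amiodarone and 2.56 for both drugs against dabigatran. The high and low libraries of Ctss were the same as those of Tlr13.

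Calls among signalling genes are set beside those of all genes, of which 5.14% were called higher and 6.59% lower. No gene was called among 5 adaptors, where Myd88 had the ratio furthest from 1 at 1.27. None was called among 14 kinases and ligases, where Tbk1, a kinase of the interferon branch, was furthest from 1 at 14.6 against 11.7 FPKM. Of 8 transcription factors, 1 was called higher and 1 lower. The first was Irf7, which drives interferon genes after Tlr7 and Tlr9 signalling, at 14.7 FPKM under vehicle, 87.0 under amiodarone, 17.2 under dabigatran and 32.98 under both. It was therefore 5.92 times as high with amiodarone as with vehicle, and at 0.379 of that level with both drugs. The second was Rel, an NF-kappaB subunit named after its value was seen, at 0.84 against 1.62 FPKM. Of 7 inhibitors, 1 was called, the NF-kappaB feedback inhibitor Tnfaip3, at 8.88 against 5.84 FPKM (ratio 1.52). Beyond counting error, adaptors had 1 gene higher and 0 lower, and kinases and ligases 2 and 4. Transcription factors had 1 and 3, and inhibitors 4 and 0. Of all genes, 19.5% were higher and 30% lower in this way.

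More genes were called among endogenous ligands and target cytokines. For amiodarone against vehicle, 5.14% of all genes were called higher and 6.59% lower. Between 0.5 and 10 FPKM the shares were 7.19% and 12.4%. Of 9 genes for endogenous ligands, 4 were called higher and none lower, led by S100a8, a subunit of the Tlr4 ligand calprotectin and a neutrophil marker, at 141.45 against 22.4 FPKM (ratio 6.31). Of 8 NF-kappaB target cytokines, 7 were called higher and none lower, of which 4 went beyond counting error, and 3 of the 8 had a mean of 1 FPKM or more. Among those 3 the chemokine Ccl3 was furthest from 1, at 5.83 FPKM with amiodarone and 1.09 with vehicle (ratio 5.35), from 80 and 14 reads. With both drugs against amiodarone, 6 of the 8 cytokines were called lower and none higher, beside 3.78% and 5.5% of the genes between 0.5 and 10 FPKM. Of these 6, 4 went beyond counting error, and the fewest reads were the 1 against 8 of Il6. Il6, Il12b and Cxcl2 had means of 0.15, 0.388 and 0.21 FPKM, under that range, so these shares are not matched to them. Il1b, the cytokine with the most reads, was not called, at 363 against 347 reads (ratio 1.02). These cytokines were named after their values were seen.

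**Figure D4:**
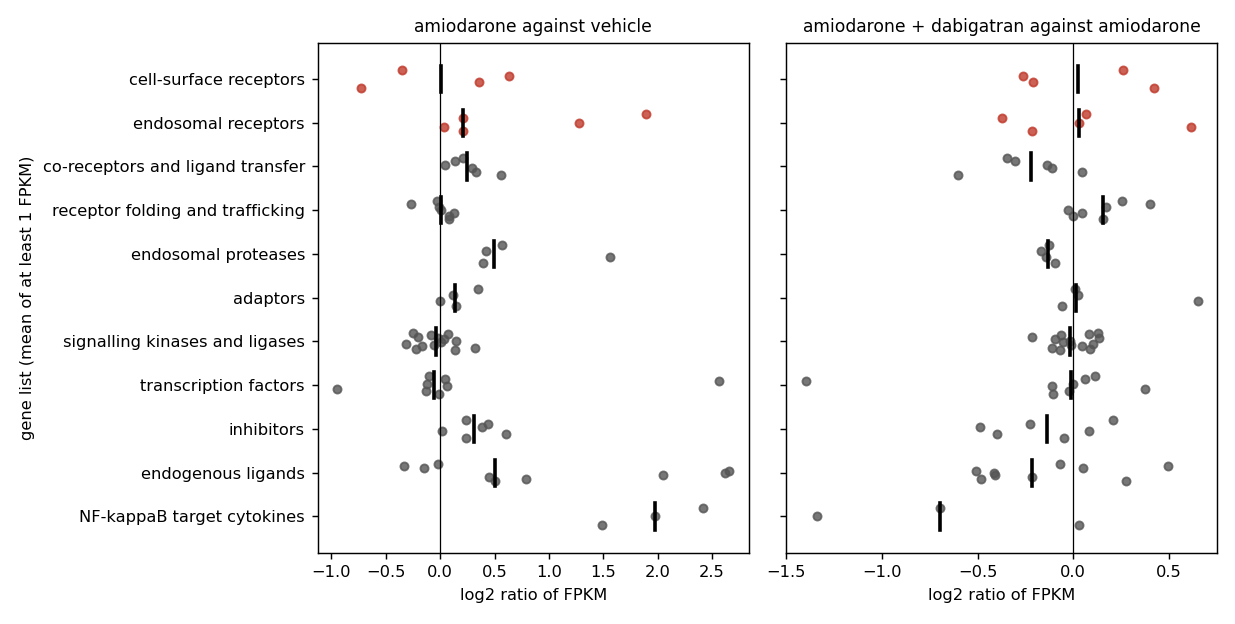
Log2 ratio of FPKM for the genes of each list whose mean reached 1 FPKM, with 1 point per gene, receptors in red (Tlr6 falls under the limit) and the list median as a black bar, for amiodarone against vehicle (left) and both drugs against amiodarone (right, on its own scale). On the left, the medians of cell-surface receptors (0.00306), folding and trafficking genes (0.011), kinases and ligases (-0.037) and transcription factors (-0.060) lie near 0. Those of adaptors (0.134), endosomal receptors (0.206), co-receptors (0.250) and inhibitors (0.312) lie above 0. Proteases (0.492), endogenous ligands (0.504) and cytokines (1.97) have the highest medians.

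The summed markers of some cell types moved with the amiodarone libraries and those of others did not. The macrophage list (9 of 10 genes in the table) summed to 105 FPKM under vehicle, 197 under amiodarone, 109.5 under dabigatran and 218 under both, with 7 of 9 genes called higher in amiodarone against vehicle and none lower. The neutrophil list of 8 genes summed to 91.4, 596, 68.8 and 431 FPKM in that order, with 7 of 8 called higher. S100a8 and S100a9 were counted both here and among the endogenous ligands, so the calls of these lists are not separate. The B lymphocyte list of 6 genes summed to 170, 58.1, 144 and 105 FPKM, with 6 of 6 called lower. Of all genes, 5.14% were called higher and 6.59% lower in amiodarone against vehicle. Conventional dendritic cell markers summed to between 21.4 and 25.2 FPKM and T lymphocyte markers to between 22.5 and 25.4 FPKM. Within these flat sums, genes went opposite ways beyond counting error in amiodarone against vehicle. Cd209a was called lower (ratio 0.253) while Clec9a stood at 1.33, and Cd8a was called lower (0.631) while Cd4 stood at 1.45. Alveolar epithelial markers, which mark the tissue as lung, summed to between 27174 and 29144 FPKM. Monocyte markers summed to 136, 195, 177 and 136 FPKM, but the 6 genes went opposite ways in amiodarone against vehicle, with 3 called higher (Ly6c2, Ccr2 and Fcgr4) and 1 lower (Nr4a1). Plasmacytoid dendritic cell markers summed to 238, 311, 198 and 260 FPKM, where the higher sum with amiodarone came from Bst2 alone, at 181.64 against 86.19 FPKM. The other 5 genes of that list had ratios below 1, and 3 were called lower (Siglech, Klk1 and Spib). These markers were named after their values were seen. Endothelial markers ranged from 724 to 898 FPKM. Fibroblast markers summed to between 314 and 510 FPKM, and the sum was lower in both amiodarone libraries. Not every gene of that list was lower. For both drugs against vehicle, 5 genes had a ratio below 1 and 1 had a ratio above it, at 1.07. No marker was at 0 in any library. The part of these cell types in the receptor values was not tested.

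The genes with a pattern most like that of Tlr13, the member with the largest range, were Ms4a8a, Trem2 and Ms4a6d. Likeness was the root mean square distance between log2 values over the 4 libraries after centring each gene, among 9683 genes whose mean reached 5 FPKM, and it was 0.0453, 0.0853 and 0.119. Ms4a8a had 5.29, 20.66, 6.05 and 20.14 FPKM, Trem2 had 2.74, 10.41, 2.94 and 12.2, and Ms4a6d had 3.17, 12.7, 2.96 and 12.13, in the order vehicle, amiodarone, dabigatran and both. A distance over 4 libraries is a description of these libraries only.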

How the data were processed

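RNA was measured in 4 mouse lung libraries, 1 per treatment group, each grouped by its treatment label. From DNBseq reads, the authors used HISAT 2.0.4 for mapping to the genome (GRCm38.p6), Bowtie2 2.2.5 for mapping to genes and RSEM 1.2.8 for quantification. The authors deposited, for each of 17780 genes and each library, an estimated count of reads and a normalized value. These deposited values are read here as FPKM, because the quotient of reads and value is 1.07 times as high in the amiodarone as in the vehicle library, as is the total of reads. The annotation release and the strand setting were not given in the sources used here. A further 8 columns with averages over 2 libraries were not used.

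Ratios of FPKM were computed in Python 3.11.15 with numpy 2.4.6, scipy 1.17.1 and pandas 2.3.3, with exact Clopper-Pearson intervals at 95% from reads rounded to whole numbers. Sequenced fragments are not independent molecules, so intervals cover counting error only. Total estimated reads were 17498486 under vehicle, 18725403 under amiodarone, 17752873 under dabigatran and 18903401 under both drugs, and a count of 0 allows up to 3 reads, or 1.71e-05% of the vehicle library. With 1 library per group no test was made, and the calculation was tested on simulated data. Backgrounds are all genes whose mean reached 1 FPKM, which 9 of the 10 members reach (not Tlr6), and those with a mean between 0.5 and 10 FPKM, the second chosen after seeing the data. Named are all members, in each of the pathway lists the gene with the ratio furthest from 1 among those with a mean of at least 1 FPKM, and in the lists next to the receptors those past 1.5-fold and beyond counting error. The members and the lists (12 pathway and 10 marker lists) were chosen with earlier results of these data known. Coordinates and promoter windows come from RefSeq for GRCm38.p6, where 17669 gene identifiers were found, and transcripts from GENCODE. Alternatives were other fold thresholds, a pseudocount, rescaling by the median ratio over 12728 genes and reads scaled to library totals.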

Additional observations from a re-analysis of the deposited data

Results flagged for a closer look

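For 9 comparisons of a drug step, the ratio lay on opposite sides of 1 without and with the other drug. With 1 library per group the difference between the steps was not tested, and an opposite sign alone arises easily where ratios lie near 1. The share of all genes with such opposite ratios was not counted.

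In 2 genes the intervals of both steps left out 1. The step that adds dabigatran gave 0.641 (0.479 to 0.855) without amiodarone and 1.53 (1.23 to 1.91) with it for Tlr8. The step that adds amiodarone gave 1.15 (1.04 to 1.28) without dabigatran and 0.845 (0.755 to 0.944) with it for Tlr3.

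For the step that adds dabigatran, 4 genes went beyond counting error with amiodarone and not without it. Tlr2 had 1.02 without and 0.835 with amiodarone, Tlr4 had 1.03 and 0.864, Tlr3 had 1.06 and 0.773, and Tlr5 had 0.957 and 1.34. Of all genes, 21.1% were higher and 14.9% lower beyond counting error with amiodarone. Without it these shares were 15.2% and 13.4%. The share of all genes with the pattern of these 4 was not counted. Counting error covered the ratios of Tlr1, at 0.967 and 1.2, and of Tlr9, at 1.02 and 0.862. It also covered both ratios of Tlr9 for the step that adds amiodarone, at 1.15 without and 0.974 with dabigatran.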

How the results depend on the processing

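For both drugs against amiodarone, 3 values near no change crossed to the other side: the cell-surface median log2 ratio went from -0.17 to 0.02 when genes with a mean under 1 FPKM were left out, and rescaling by the median ratio took the endosomal median from 0.03 to -0.0071 and the Tlr7 ratio from 1.02 to 0.995. At 2-fold, amiodarone against vehicle had 2 members higher and 0 lower in place of 4 and 1, dabigatran against vehicle had 0 lower in place of 1, and both drugs against amiodarone had 0 higher in place of 1. At the lowest threshold tried (25% higher or 20% lower), amiodarone against vehicle had 2 members lower, dabigatran against vehicle had 1 higher in place of 0, and both drugs against amiodarone had 2 higher and 1 lower. With a pseudocount of 1 FPKM, which draws low genes towards a ratio of 1, 2 members were higher and 0 lower in amiodarone against vehicle, 0 were lower in dabigatran against vehicle, 0 were higher in both drugs against amiodarone and 2 were higher in both drugs against dabigatran, in place of 4. Rescaling by the median ratio over genes left 0 members higher in both drugs against amiodarone, since Tlr8 stood just past 1.5-fold. Dropping Tlr6 for its mean under 1 FPKM moved the cell-surface median log2 ratio of amiodarone against vehicle from 0.35 to 0.00306. Of 120 ratios of single members, 5 moved by more than counting error, all with the pseudocount. No paired analysis was possible because each group holds 1 library, and for the same reason no library could be left out. Depth limits Tlr6 most, with 36.62 to 78.15 reads per library.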
